A study of Homo sapiens with 8 samples.

Results

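RT112 and UM-UC-3 are established lines of human bladder cancer cells, and they were compared here in their control state. The comparison used the 4 libraries that had received a pool of 3 scrambled siRNAs (siControl), 2 of RT112 and 2 of UM-UC-3, out of the 8 libraries of the series. The other 4 libraries were from the same lines given a pool of 3 siRNAs against 1 gene (the knockdown libraries), and served as a second set of the same comparison. Every library was made from cells transfected with 100 pmol of siRNA, and RNA was taken after 72 h. The labels call the genotype of both lines WT, without naming a gene.

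Each line is a single line, so a difference between them is a difference between 2 cell lines and not between kinds of tumour. The lines were grown in either RPMI 1640 or DMEM, and which line received which is not given in the sources used here, so the line and the medium cannot be told apart. The study describes its knockdowns as independent replicate experiments, more in number than the 2 libraries per group of this series. Nothing in the labels ties a library to an experiment or says that replicates were separate cultures. The p-values therefore measure only the spread between these samples, which may be technical. In bulk RNA, fewer cells of a type and less RNA per cell cannot be told apart.

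The bladder is lined by urothelium, a layered epithelium whose basal cells make keratin 5 and p63 and whose surface cells carry plaques of uroplakins. Its identity is kept by transcription factors such as GATA3, FOXA1, PPARG, ELF3 and the grainyhead-like factors. Epithelial cells hold to each other through E-cadherin, tight junctions and desmosomes, and in epithelial to mesenchymal transition the ZEB, SNAIL and TWIST factors repress those genes while vimentin, SPARC and fibrillar collagens appear. The ZEB and SNAIL factors bind a DNA motif called the E-box, in the forms CACCTG or CAGGTG.

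Levels are given as TPM, the number of transcripts among 1000000, which is scaled for gene length, in the order replicate 1 and replicate 2. A difference is RT112 minus UM-UC-3 on the log2(TPM + 0.1) scale with its standard error (SE). The added 0.1 shrinks the difference of genes near 0. A value of 0 in only 1 of the 2 libraries of a line can instead enlarge it, because the logs are averaged. A gene was called when limma gave a Benjamini-Hochberg adjusted p under 0.05 over all tested genes together with a difference of at least 2-fold. No fold is given against a line where a gene is listed at 0 in both libraries. Where a list gives 4 counts for 1 library left out, their order is RT112 replicates 1 and 2, then UM-UC-3 replicates 1 and 2. Such a fit has 3 samples, and its spread comes only from the line that keeps 2 libraries. A call lost without an RT112 library thus rests on the spread between the UM-UC-3 libraries and on fewer samples, and the reverse.

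The 4 control libraries held an estimated 29200000 to 31800000 reads each and between 16157 and 16547 genes above 0 TPM. Between replicates the median absolute log2 difference was 0.13 in RT112 and 0.15 in UM-UC-3, over the 12769 genes that averaged 1 TPM or more, against 0.69 between the lines. UM-UC-3 replicate 1 stood apart in one respect. Of 83 genes with at least 100 TPM in both RT112 controls and under 1% of that level in all 4 UM-UC-3 libraries, 20 were at 0 in UM-UC-3 control replicate 1 and 1 in control replicate 2. The median level of these genes, as a percent of the RT112 level, was 0.0572 and 0.182 in the UM-UC-3 controls and 0.154 and 0.193 in the UM-UC-3 knockdown libraries. For 16 genes chosen the same way from UM-UC-3, the medians in the RT112 libraries ran from 0.197% to 0.275%. What leaves these traces was not tested, and levels of this size are given as values only and not read as expression.

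Of 27475 human genes in the table, 8274 were at 0 in all 4 control libraries and 19201 were tested. The test called 3108 genes higher in RT112, or 16.2% of those tested, and 3054 higher in UM-UC-3, or 15.9%, which is 32.1% in either direction. Leaving out 1 library gave between 2149 and 2331 genes higher in RT112 and between 1996 and 2277 higher in UM-UC-3, the lowest of the latter without RT112 replicate 2. At least 10-fold was reached by 1122 of the genes called higher in RT112 and by 849 of those called higher in UM-UC-3. The median difference over all tested genes was -0.06. The shares of 16.2% and 15.9% are the background against which the counts of each list below are to be read. The lists and their members were chosen with earlier results of these data known, so a count above these shares describes a list and is no test of it.

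**Figure D1:**
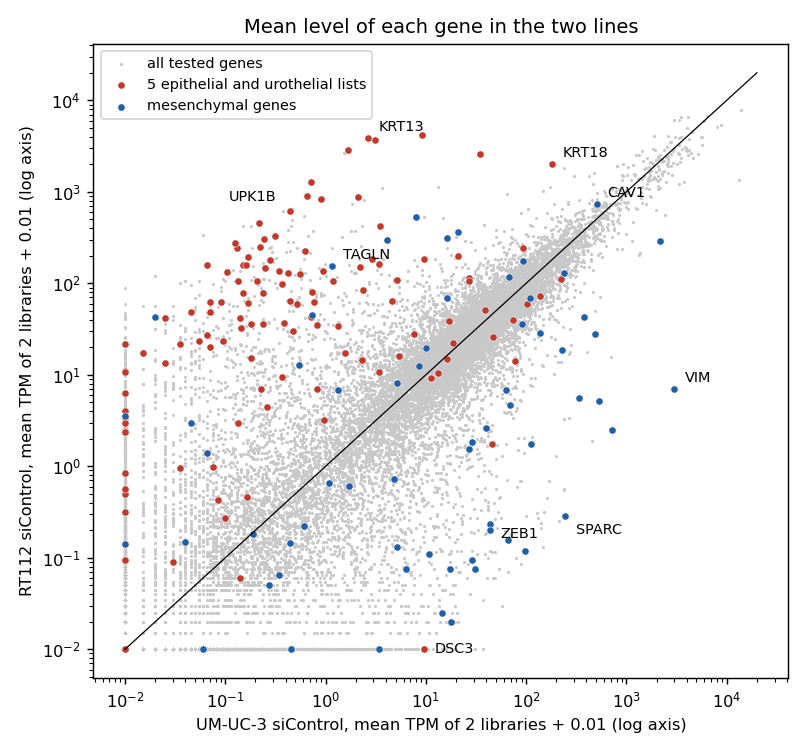
Mean level of each tested gene in the 2 UM-UC-3 control libraries (x axis) and the 2 RT112 control libraries (y axis), in TPM + 0.01 on log axes, with members of 5 epithelial lists in red and of the mesenchymal list in blue. The red points lie mostly above the diagonal, with 106 of 125 tested members called higher in RT112, and the blue points lie mostly below it, although 14 of 64 were called higher in RT112.

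The 10 genes with the largest difference toward RT112, among those with at least 10 TPM there, were KRT13, LY6D, KRT17, S100P, UGT1A6, FXYD3, S100A14, KRT19, CEACAM6 and ANXA8. KRT13, a keratin of layered epithelia, had 3882.05 and 3857.53 TPM in RT112 and 0 and 5.26 TPM in UM-UC-3. LY6D, a small surface protein of epithelial cells, had 2612.5 and 2700.27 TPM in RT112 and 0 and 3 TPM in UM-UC-3. Both stood among the most abundant RNAs of RT112 and at trace level or 0 in UM-UC-3, and the differences were 12.37 (SE 2.02, adjusted p = 0.0103) and 12.22 (SE 1.75, adjusted p = 0.0071). Their size rests in part on the values of 0 in UM-UC-3 replicate 1, and without that library the differences were 9.50 and 9.74. In the knockdown libraries they were 9.85 and 9.80. UGT1A6, which attaches glucuronic acid to small molecules, had 338.17 and 335.28 TPM in RT112 against 0 and 0.1 TPM. UGT1A6 shares exons with the other UGT1A genes, and ANXA8 has near-identical copies, so their values are uncertain between those genes. Of these 10 genes, all but UGT1A6 lost the call without either RT112 library, where the spread is that of the UM-UC-3 libraries alone. The differences hardly moved in those fits, lying between 12.36 and 12.37 for KRT13 and between 12.20 and 12.24 for LY6D. Without UM-UC-3 replicate 1 the 10 differences lay between 9.33 and 10.72, and in the knockdown libraries between 9.38 and 10.53.

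Toward UM-UC-3 the 10 largest differences were those of MAGEA4, SPARC, MME, CCL2, COL3A1, NCAM2, THY1, VIM, KCNMA1 and PLBD1. MAGEA4, a cancer-testis antigen, had 0.12 and 0.12 TPM in RT112 and 155.29 and 137.25 TPM in UM-UC-3, a difference of -9.38 (SE 0.15, adjusted p = 0.000242). MME, the surface peptidase neprilysin, had 0.27 and 0.21 TPM against 222.24 and 206.59 TPM. THY1, a surface protein of fibroblasts and neurons, had 0.12 and 0.1 TPM against 96.31 and 96.42 TPM. The potassium channel gene KCNMA1 had 0.28 and 0.18 TPM against 141.81 and 138.19 TPM. In each of these the replicates of a line lay far closer to each other than to the other line. CCL2 alone of these 10 lost its call, without either UM-UC-3 library, at adjusted p of 0.0525 and 0.0532.

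Among the 5 most abundant genes of each line outside the mitochondrial genome, EEF1A1, RPS2 and GAPDH were common to both. TMSB10, which binds actin monomers, had 1410.63 and 1302.22 TPM in RT112 and 12465.91 and 13959.2 TPM in UM-UC-3, and differed by -3.28 (SE 0.08, adjusted p = 0.000274). FTH1, the heavy chain of ferritin, was called higher in RT112, with 6037.62 and 6025.6 TPM against 3034.67 and 2866.19 TPM, although its difference was 0.99 without UM-UC-3 replicate 2. ACTG1 had 6122.68 and 5715.58 TPM in RT112 and 6273.57 and 5611.95 TPM in UM-UC-3, ranges that overlapped.

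Most regulators of urothelial identity were high in RT112 and near 0 in UM-UC-3. Of 24 tested transcription factors and cofactors, 20 were called higher in RT112 and none in UM-UC-3, with a median difference of 5.58. GATA3 had 108.72 and 104.52 TPM in RT112 and 0.96 and 1.38 TPM in UM-UC-3, a difference of 6.41 (SE 0.20, adjusted p = 0.000316). FOXA1, which opens chromatin for other factors, had 62.63 and 64.62 TPM against 0.35 and 0.51 TPM. PPARG, a nuclear receptor that drives urothelial differentiation, had 109.14 and 107.97 TPM against 5.56 and 4.53 TPM, so it remained above trace level in UM-UC-3. Its partner RXRA had 111.81 and 118.49 TPM against 26.45 and 27.98 TPM.

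The grainyhead-like factors, which switch on junction genes, were among them. GRHL2 had 80.94 and 76.05 TPM in RT112 and 0 and 0.28 TPM in UM-UC-3, a difference of 8.65 (SE 0.70, adjusted p = 0.00163). GRHL3 had 2.88 and 3.81 TPM in RT112 and was listed at 0 in both UM-UC-3 libraries. The factors OVOL1 and OVOL2, which repress ZEB1, had 12.75 and 14.25 TPM and 10.46 and 11.59 TPM in RT112, and at most 0.03 TPM in UM-UC-3. TP63, the basal cell factor, had 34.82 and 37.41 TPM against 0.28 and 0.18 TPM, and KLF5 had 183.64 and 188.65 TPM against 1.95 and 3.84 TPM. Exceptions were TBX3, with 14.75 and 15.03 TPM in RT112 and 17.76 and 14.4 TPM in UM-UC-3, and TFAP2A, with 25.4 and 25.82 TPM against 50.03 and 44.43 TPM, a difference of -0.88 that was under 2-fold. With 1 library left out, 15, 14, 20 and 20 regulators were called higher in RT112. ELF3 (191.53 and 192.3 TPM against 0 and 0.32 TPM), GRHL2 and KLF5 lost the call without either RT112 library, at adjusted p of 0.0553 to 0.0792.

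Uroplakins and differentiation genes showed a similar count, with 15 of 17 called higher in RT112, none higher in UM-UC-3 and a median difference of 6.04. UPK1B, which spans the membrane of urothelial plaques, had 580.28 and 640.01 TPM in RT112 and 0.08 and 0.79 TPM in UM-UC-3, a difference of 10.57 (SE 0.82, adjusted p = 0.00148). UPK3B had 101.82 and 111.01 TPM against 0.11 and 0.28 TPM, and UPK2 had 24.08 and 30.33 TPM against 0.11 and 0 TPM. UPK3A, a marker of the surface cells, was listed at 0 in all 4 libraries, so not all uroplakin genes were found in RT112. FABP4, a carrier of fatty acids whose gene is a target of PPARG, had 3543.73 and 3776.75 TPM in RT112 and 1.13 and 5.14 TPM in UM-UC-3. ADIRF and PSCA were also called higher, with 140.52 and 159.49 TPM against 2.31 and 2.06 TPM and with 99.1 and 115.95 TPM against 6.17 and 4.09 TPM. Leaving out 1 library gave 9, 9, 11 and 11 calls, and UPK1B, UPK2, FABP4 and S100P lost theirs without either RT112 library, at adjusted p of 0.0504 to 0.124.

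Keratins build the intermediate filaments of epithelial cells, and 19 of 21 tested were called higher in RT112, with a median difference of 4.93. KRT7 reached 4193.33 and 4167.2 TPM in RT112 and 7.99 and 10.45 TPM in UM-UC-3. KRT8 and KRT18, the pair found in simple epithelia, were also called higher in RT112 but were clearly present in UM-UC-3. KRT8 had 2580.05 and 2566.49 TPM against 32.67 and 37.21 TPM, and KRT18 had 2054.79 and 2002.97 TPM against 178.81 and 185.71 TPM, a difference of 3.48 (SE 0.04, adjusted p = 0.000208). The basal keratin KRT5 had 878.71 and 783.75 TPM against 0.63 and 1.16 TPM, while KRT14, its usual partner, had 8.08 and 10.74 TPM against 0.15 and 0.56 TPM. KRT20, the keratin of surface cells, was low in RT112 as well, at 0.41 and 1.5 TPM. KRT16 was not called, with 9.38 and 8.92 TPM in RT112 and 11.22 and 11.1 TPM in UM-UC-3. With 1 library left out, 12, 11, 18 and 18 keratins were called. KRT13, KRT14, KRT17 and KRT19 lost the call without either RT112 library, at adjusted p of 0.0704 to 0.175, and KRT20 lost it whichever of the 4 was left out, at 0.0563 to 0.254.

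**Figure D2:**
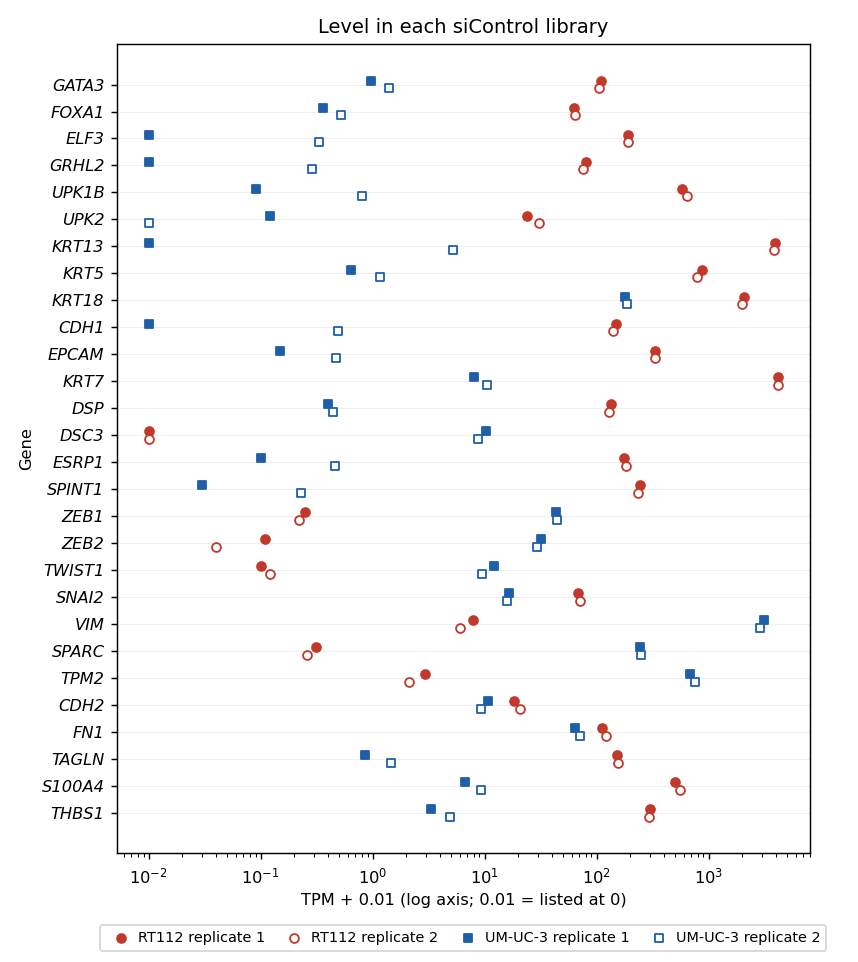
Level of 28 named genes in each of the 4 control libraries, in TPM on a log axis, with RT112 replicates and UM-UC-3 replicates as separate points. Epithelial genes such as KRT7 (4193.33 and 4167.2 TPM in RT112, 7.99 and 10.45 TPM in UM-UC-3) and mesenchymal genes such as VIM (7.81 and 6.04 TPM in RT112, 3142.15 and 2852.45 TPM in UM-UC-3) separate the lines in opposite directions.

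Genes of cell junctions were mostly high in RT112, with 32 of 39 called higher there, 3 higher in UM-UC-3 and a median difference of 5.73. CDH1, which encodes E-cadherin (chr16:68737292-68835537), had 149.58 and 141.09 TPM in RT112 and 0 and 0.48 TPM in UM-UC-3, a difference of 9.24 (SE 0.90, adjusted p = 0.00259). EPCAM had 331.87 and 330.47 TPM against 0.14 and 0.46 TPM, and CDH3, which encodes P-cadherin, had 128.26 and 123.17 TPM against 0.29 and 0.81 TPM. Thus both classical epithelial cadherins were at trace level in UM-UC-3. Among tight junction genes, CLDN4 had 238.03 and 218.55 TPM against 0.69 and 0.53 TPM. OCLN and TJP1 differed far less: OCLN had 22.49 and 21.65 TPM against 18.92 and 18.44 TPM, and TJP1 had 47.08 and 55.76 TPM against 36.72 and 41.16 TPM. Neither was called. CLDN12 was not called either, with 11.33 and 9.79 TPM in RT112 and 13.64 and 12.65 TPM in UM-UC-3.

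Desmosomes anchor keratin filaments at the membrane, and 11 of their 12 genes were called higher in RT112. DSP, the plakin that ties the filaments, had 133.68 and 128.38 TPM in RT112 and 0.39 and 0.43 TPM in UM-UC-3, a difference of 8.01 (SE 0.12, adjusted p = 0.000242). JUP had 418.98 and 429.7 TPM against 3.32 and 3.63 TPM, and DSG2 had 187.18 and 177.42 TPM against 9.92 and 9.44 TPM. The exception was DSC3, a desmosomal cadherin, which was listed at 0 in both RT112 libraries and had 10.35 and 8.79 TPM in UM-UC-3. Gap junction genes were split. GJB5 and GJB6 were called higher in RT112, whereas GJA1, which encodes connexin 43, had 1.98 and 1.54 TPM in RT112 and 51.43 and 40.53 TPM in UM-UC-3, and GJC1 was called higher in UM-UC-3 as well. Leaving out 1 library gave 24, 24, 27 and 27 junction genes higher in RT112 and 3 higher in UM-UC-3 each time, and CDH1 and CDH3 lost the call without either RT112 library, at adjusted p of 0.0564 to 0.0986.

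Epithelial splicing and trafficking genes had the largest median difference of these 5 lists, 7.42, with 20 of 24 called higher in RT112 and none higher in UM-UC-3. ESRP1 and ESRP2 set the splicing patterns of epithelial cells. ESRP1 had 175.46 and 184.08 TPM in RT112 and 0.09 and 0.45 TPM in UM-UC-3, a difference of 9.12 (SE 0.55, adjusted p = 0.000899), and ESRP2 had 36.97 and 34.92 TPM against 0 and 0.34 TPM. The 3 splicing factors of mesenchymal patterns in the list lay on the other side. QKI had 106.22 and 118.45 TPM against 209.88 and 233.73 TPM, RBFOX2 had 39.44 and 39.45 TPM against 77.65 and 70.34 TPM, and MBNL1 had 76.19 and 67.79 TPM against 135.81 and 140.51 TPM. Their differences of -0.98, -0.90 and -0.94 were just under 2-fold, so none was called.

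RAB25, a small GTPase of the recycling endosome in epithelial cells, had 136.31 and 132.46 TPM in RT112 and 0 and 0.19 TPM in UM-UC-3, a difference of 9.63 (SE 0.56, adjusted p = 0.000839). The matriptase gene ST14 and its inhibitors SPINT1 and SPINT2 moved together: ST14 had 157.63 and 161.87 TPM against 0.06 and 0.24 TPM, SPINT1 245.91 and 236.05 TPM against 0.02 and 0.22 TPM, and SPINT2 874.39 and 863.99 TPM against 2.42 and 1.8 TPM. CDS1, an enzyme of phospholipid synthesis, had 17.09 and 17.88 TPM against 0.01 and 0 TPM. CRB3, which sets cell polarity and belongs to the junction list, had 10.15 and 11.5 TPM in RT112 and was listed at 0 in both UM-UC-3 libraries. The counts with 1 library left out were 10, 9, 20 and 19 higher in RT112, and MBNL1 was called higher in UM-UC-3 without RT112 replicate 1, with a difference of -1.03. ESRP1, ESRP2 and RAB25 lost the call without either RT112 library, at adjusted p of 0.0567 to 0.104, and SPINT1 without replicate 2 of RT112, at 0.0501.

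The stretch of 250 bases upstream of the annotated start is shown for 4 of these genes, because each holds the E-box that the ZEB and SNAIL factors bind. The sequences are from RefSeq on GRCh38.p14, on the plus strand and 5′ to 3′, and capitals mark each CACCTG or CAGGTG. They lie at chr1:156060910-156061159 for RAB25, chr4:84582877-84583126 for CDS1, chr6:7541421-7541670 for DSP and chr19:6464021-6464270 for CRB3.
RAB25: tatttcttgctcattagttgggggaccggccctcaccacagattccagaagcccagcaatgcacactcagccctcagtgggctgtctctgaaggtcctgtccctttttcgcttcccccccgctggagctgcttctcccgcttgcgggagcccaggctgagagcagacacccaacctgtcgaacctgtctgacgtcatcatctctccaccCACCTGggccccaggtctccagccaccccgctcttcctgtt
CDS1: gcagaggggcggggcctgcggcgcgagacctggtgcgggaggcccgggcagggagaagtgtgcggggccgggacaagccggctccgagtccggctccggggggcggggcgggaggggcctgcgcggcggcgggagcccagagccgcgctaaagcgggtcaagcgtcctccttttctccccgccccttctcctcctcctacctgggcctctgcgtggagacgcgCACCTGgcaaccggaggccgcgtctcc
DSP: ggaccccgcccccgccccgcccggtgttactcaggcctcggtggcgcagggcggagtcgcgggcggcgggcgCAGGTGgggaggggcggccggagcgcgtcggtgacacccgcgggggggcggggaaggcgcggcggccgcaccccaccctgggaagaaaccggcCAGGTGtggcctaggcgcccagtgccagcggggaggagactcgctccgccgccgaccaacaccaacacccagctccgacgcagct
CRB3: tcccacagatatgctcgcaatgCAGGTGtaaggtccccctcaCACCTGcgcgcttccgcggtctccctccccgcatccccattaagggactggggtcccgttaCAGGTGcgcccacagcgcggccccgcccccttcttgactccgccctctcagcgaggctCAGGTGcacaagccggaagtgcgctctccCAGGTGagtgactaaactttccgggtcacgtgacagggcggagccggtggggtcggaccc
Counted back from the annotated start, the motif began at -41 in RAB25, at -27 in CDS1, and at -178 and -85 in DSP, while CRB3 held 5 matches. The motif CACCTG and its reverse complement CAGGTG were searched together, which covers both strands, and they cannot overlap each other.

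Over all 35116 promoters of the table, 17.5% held the motif in these 250 bases. Of the junction, splicing and trafficking genes called higher in RT112, 29 of 52 had an entry and 13 of those 29 (44.8%) held it. CLDN4, CLDN7 and JUP were among those without a match, and CDH1, EPCAM and ESRP2 had no entry. Among all tested genes with an entry the share was 16.6%, among those called higher in RT112 it was 23.8% of 2149, and among those called higher in UM-UC-3 it was 13.3% of 2185. A match is a description of the letters in this window and shows no binding.

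Mesenchymal genes were mostly higher in UM-UC-3, but not uniformly. Of 64 tested, 34 were called higher in UM-UC-3, 14 higher in RT112 and 16 not called, with a median difference of -1.80. ZEB1, which represses E-cadherin, had 0.24 and 0.21 TPM in RT112 and 43.14 and 44 TPM in UM-UC-3, a difference of -7.07 (SE 0.17, adjusted p = 0.000275). ZEB2 had 0.1 and 0.03 TPM against 31.92 and 29.58 TPM, TWIST1 0.09 and 0.11 TPM against 12.23 and 9.42 TPM, and FOXC2 0.02 and 0 TPM against 19.07 and 16.94 TPM. SNAI1 was low but called, with 0.15 and 0.09 TPM against 5.19 and 5.12 TPM. The related repressor SNAI2 ran the other way, with 68.2 and 70.41 TPM in RT112 and 16.44 and 15.73 TPM in UM-UC-3, a difference of 2.10 (SE 0.07, adjusted p = 0.000359). TWIST2 was also called higher in RT112, at 4.22 and 2.92 TPM against 0 in both UM-UC-3 libraries.

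VIM, the intermediate filament protein of mesenchymal cells, had 7.81 and 6.04 TPM in RT112 and 3142.15 and 2852.45 TPM in UM-UC-3, a difference of -8.75 (SE 0.14, adjusted p = 0.000242). The tropomyosin gene TPM2 had 2.92 and 2.11 TPM against 681.73 and 751.06 TPM, and MSN, which links actin to the membrane, had 5.06 and 6.02 TPM against 340.68 and 335.11 TPM. Thus several cytoskeletal genes were far apart, yet others ran in the opposite direction. TAGLN, an actin-binding protein of smooth muscle, had 152.9 and 154.15 TPM in RT112 and 0.84 and 1.46 TPM in UM-UC-3, and S100A4, known as fibroblast-specific protein, had 498.25 and 551.56 TPM against 6.64 and 9.32 TPM. CDH2, which encodes N-cadherin, had 18.19 and 20.58 TPM in RT112 and 10.61 and 9.22 TPM in UM-UC-3, and its difference of 0.96 was not called, although it passed at 1.01 after rescaling by the median ratio. CDH11, another mesenchymal cadherin, had 0.13 and 0.04 TPM against 28.78 and 28.47 TPM and was called higher in UM-UC-3.

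Among matrix and surface genes, 19 of 31 were called higher in UM-UC-3 and 6 higher in RT112. SPARC, a collagen-binding matrix protein, had 0.3 and 0.25 TPM in RT112 and 242.23 and 249.15 TPM in UM-UC-3. CTGF had 1.97 and 1.54 TPM against 122.16 and 101.46 TPM, and NT5E, which encodes CD73, had 27.06 and 28.17 TPM against 515.12 and 457.26 TPM. AXL, a receptor kinase, had 30.64 and 27.13 TPM against 144.48 and 130.42 TPM. The exceptions included abundant secreted proteins. TGFBI had 314.88 and 312.35 TPM in RT112 against 15.92 and 16.44 TPM, THBS1 had 299.34 and 293.09 TPM against 3.32 and 4.86 TPM, FBLN1 had 355.49 and 373.51 TPM against 22.36 and 19.93 TPM, and LOXL1 had 43.28 and 42.33 TPM against 0 and 0.02 TPM. FN1, which encodes fibronectin, had 112.61 and 120.39 TPM in RT112 and 64.29 and 70.56 TPM in UM-UC-3, a difference of 0.79 that was under 2-fold. With 1 library left out, 31, 31, 30 and 32 members were called higher in UM-UC-3 and 12, 12, 13 and 12 higher in RT112.

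**Figure D3:**
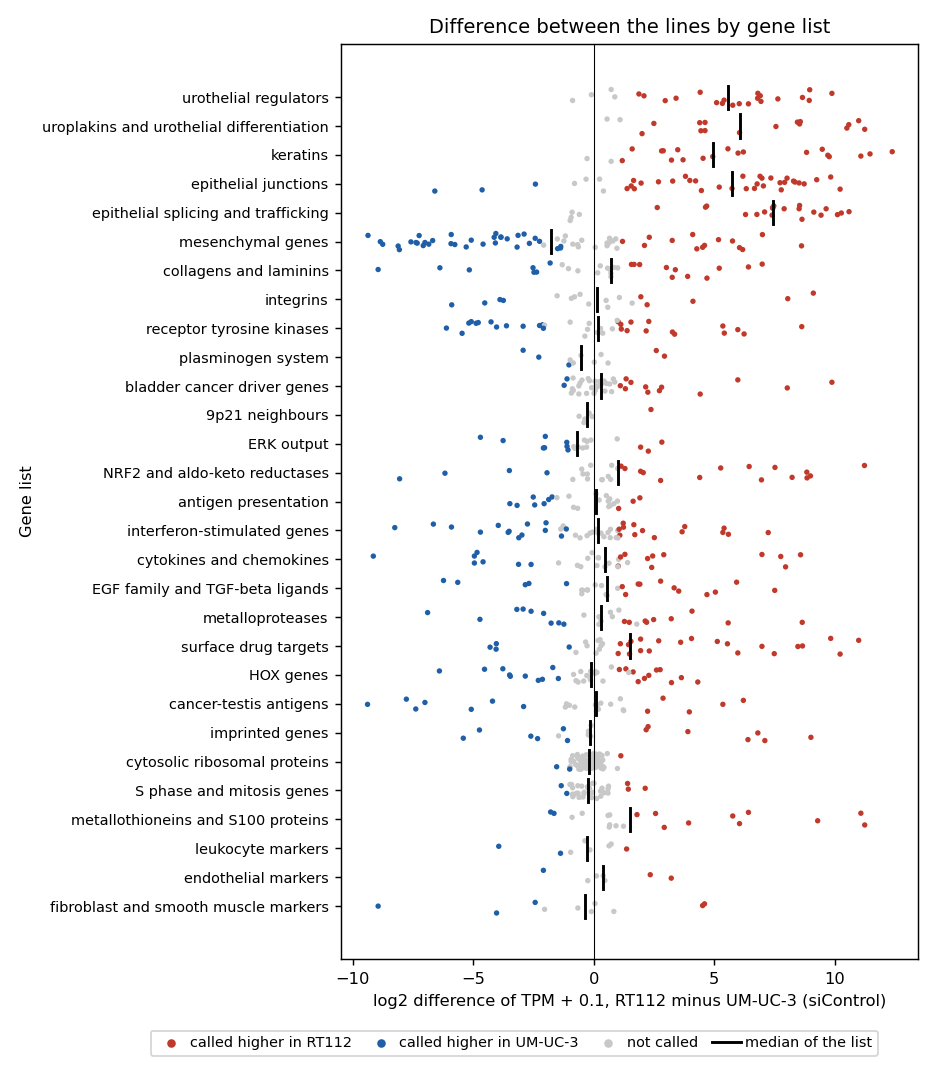
Difference between the lines for each tested member of 29 gene lists, as RT112 minus UM-UC-3 on the log2(TPM + 0.1) scale, with 1 row per list and the median of each list marked. The medians run from 7.42 for epithelial splicing and trafficking genes to -1.80 for mesenchymal genes, and the 5 epithelial lists have medians from 4.93 to 7.42.

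Collagens and laminins, the main proteins of the matrix and of basement membranes, had members on both sides. Among 29 tested, 11 were called higher in RT112 and 7 higher in UM-UC-3, against 16.2% and 15.9% of all tested genes. The median difference was 0.71, and the counts were 5 and 4 of 18 collagens and 6 and 3 of 11 laminins. The fibrillar collagen COL3A1 had 0.12 and 0.28 TPM in RT112 and 136.97 and 147.66 TPM in UM-UC-3, and COL5A2 had 0.3 and 0.35 TPM against 36.04 and 34.48 TPM. COL1A2 was listed at 0 in all 4 libraries and COL1A1 was not called, so fibrillar collagens did not move as a block. The laminin chains LAMA3 and LAMB3, part of a laminin to which basal epithelial cells attach, were called higher in RT112. LAMA3 had 119.28 and 116.63 TPM against 1.51 and 1.1 TPM, and LAMB3 had 187.83 and 183.88 TPM against 11.46 and 13.46 TPM. COL17A1, of the hemidesmosome that joins cells to that laminin, had 106.2 and 89.61 TPM against 1.77 and 3.65 TPM. Counts higher in RT112 with 1 library left out were 7, 7, 11 and 12, and COL17A1 was lost without either RT112 library, at adjusted p of 0.0668 and 0.0697.

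Integrins are pairs of an alpha and a beta chain that bind matrix proteins. ITGB4, the beta chain of hemidesmosomes, had 300.44 and 258.99 TPM in RT112 and 0.36 and 0.46 TPM in UM-UC-3. Its alpha chain partner ITGA6 had 263.09 and 274.62 TPM against 68.03 and 71.05 TPM. ITGB6, another beta chain of epithelial cells, had 69.25 and 59.7 TPM against 0.13 and 0.16 TPM. ITGA5, of the fibronectin receptor, was called higher in UM-UC-3, at 3.69 and 4.22 TPM against 60.15 and 59.86 TPM, while ITGB1 had 887.82 and 897.09 TPM against 1680.99 and 1730.41 TPM and was under 2-fold. Over the 18 integrin chains tested, 5 were called higher in RT112 and 4 higher in UM-UC-3, and 9 were not called. The shares over all tested genes were 16.2% and 15.9%.

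Receptor tyrosine kinases carry growth signals across the membrane, and their genes were divided between the lines. Of 38 tested, 14 were called higher in RT112 and 13 higher in UM-UC-3, against 16.2% and 15.9% of all tested genes. FGFR3, a receptor often altered in bladder cancer, had 130.45 and 131.3 TPM in RT112 and 2.21 and 1.78 TPM in UM-UC-3, a difference of 5.97 (SE 0.13, adjusted p = 0.000274). RT112 is known to carry a fusion of FGFR3 with TACC3, and levels per gene do not separate a fusion from the usual transcripts. TACC3, a spindle protein, had 187.77 and 193.63 TPM against 86.1 and 89.29 TPM and was called higher in RT112 too. FGFR1 ran the other way, with 5.81 and 2.88 TPM in RT112 and 74.76 and 86.11 TPM in UM-UC-3, a difference of -4.26 (SE 0.36, adjusted p = 0.00187). FGFR2, at 12.2 and 13.96 TPM against 0.21 and 0.21 TPM, was with FGFR3.

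EGFR had 72.3 and 71.43 TPM in RT112 and 35.99 and 35.14 TPM in UM-UC-3, a difference of 1.01 just past 2-fold, and of 0.48 (adjusted p = 0.116) in the knockdown libraries. ERBB2 had 46.09 and 52.95 TPM against 15.28 and 18.71 TPM, and ERBB3 had 25.3 and 28.5 TPM against 3.23 and 2.01 TPM, so these 3 were called higher in RT112 by different amounts. ERBB4 was called higher in UM-UC-3, at 0.09 and 0.05 TPM against 1.36 and 1.03 TPM. EPHB6, a kinase-dead ephrin receptor, had the largest difference of the list, 8.62, with 108.44 and 116.03 TPM against 0.07 and 0.38 TPM. Higher in UM-UC-3 were KIT, at 0.15 and 0.07 TPM against 13.85 and 14.52 TPM, and DDR2, at 0.24 and 0.04 TPM against 10.27 and 8.75 TPM. Leaving out 1 library gave 7, 7, 14 and 12 receptors higher in RT112 and 12, 11, 8 and 10 higher in UM-UC-3. ERBB2 lost its call without either RT112 library or UM-UC-3 replicate 1, ERBB3 and EPHB6 without either RT112 library, ERBB4 without RT112 replicate 2, and FGFR1 and DDR2 without either UM-UC-3 library, at adjusted p of 0.0523 to 0.0877. EGFR fell to the 2-fold limit without UM-UC-3 replicate 2.

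Of 26 ligands, receptors and signalling genes of the EGF and TGF-beta families, 11 were called higher in RT112 and 5 higher in UM-UC-3. Their median difference was 0.53, and the shares over all tested genes were 16.2% and 15.9%. The EGFR ligands TGFA and AREG were higher in RT112, TGFA with 38.47 and 34.22 TPM against 1.31 and 0.77 TPM and AREG with 31 and 32.7 TPM against 0.6 and 0.3 TPM. EREG, another EGFR ligand, had 0.08 and 0.21 TPM in RT112 and 12.79 and 10.62 TPM in UM-UC-3. The neuregulins were divided: NRG4 had 15.88 and 20.33 TPM in RT112 and was listed at 0 in UM-UC-3, while NRG1 had 7.57 and 5.97 TPM against 43.13 and 45.04 TPM. TGFB1 was not called, with 87.11 and 93.55 TPM in RT112 and 135.33 and 120.09 TPM in UM-UC-3. Counts higher in RT112 with 1 library left out were 7, 5, 9 and 9, and those higher in UM-UC-3 were 4, 5, 2 and 2. TGFA lost its call without either RT112 library, AREG without RT112 replicate 2 and EREG without either UM-UC-3 library, at adjusted p of 0.0502 to 0.0526.

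Of 41 tested genes that are altered in bladder cancer, 12 were called higher in RT112, 2 higher in UM-UC-3 and 27 were not called. Over all tested genes, 16.2% were called higher in RT112 and 15.9% higher in UM-UC-3, or 32.1% in either direction. STAG2, a subunit of cohesin, had 54.16 and 47.01 TPM in RT112 and 7.29 and 7.85 TPM in UM-UC-3, a difference of 2.72 (SE 0.11, adjusted p = 0.000487). BAP1, a deubiquitinase, was called higher in UM-UC-3, with 20.08 and 19.1 TPM against 48.54 and 43.7 TPM. RB1 was not called, with 32.43 and 33.07 TPM in RT112 and 36.26 and 40.66 TPM in UM-UC-3, and levels do not report on mutations.

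On the short arm of chromosome 9, the cell cycle inhibitors CDKN2A (chr9:21967752-21995324) and CDKN2B and their neighbours MTAP and DMRTA1 were listed at 0 in all 4 libraries. MTAP, an enzyme of methionine salvage, is made in most cell types. Its neighbours outside this stretch were present in both lines, such as KLHL9 with 12.68 and 11.87 TPM in RT112 and 17.13 and 15.52 TPM in UM-UC-3, and FOCAD with 12.78 and 13.62 TPM against 20.58 and 19.9 TPM. Copy number was not measured here.

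Genes that report on ERK signalling were mixed, with 3 of 20 called higher in RT112 and 8 higher in UM-UC-3. Their median difference was -0.72, and the shares over all tested genes were 16.2% and 15.9%. DUSP6, a phosphatase of ERK, had 112.26 and 107.73 TPM in RT112 and 25.96 and 20.1 TPM in UM-UC-3, and ETV4 had 66.13 and 65.37 TPM against 13.97 and 20.71 TPM. FOSL1, an AP-1 factor, had 74.7 and 67.6 TPM against 304.81 and 300.47 TPM, and HMGA2 had 17.59 and 20.94 TPM against 75.6 and 79.52 TPM. CCND1, which encodes cyclin D1, had 173.27 and 173.12 TPM against 389.43 and 358.29 TPM. The 3 genes called higher in RT112 (DUSP6, ETV4 and FOS) lost the call without either RT112 library, at adjusted p of 0.0575 to 0.105, and the counts higher in UM-UC-3 were 7, 6, 6 and 6.

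The plasminogen activators, proteases that make plasmin, differed in opposite directions. PLAU, the urokinase gene, had 69.65 and 73.43 TPM in RT112 and 557.93 and 531.97 TPM in UM-UC-3, a difference of -2.93 (SE 0.06, adjusted p = 0.000245). PLAT, the tissue-type activator, had 71.18 and 67.71 TPM against 11.87 and 11.09 TPM, a difference of 2.59 (SE 0.08, adjusted p = 0.000322). PLAUR, the urokinase receptor, had 74.16 and 64.17 TPM against 149.6 and 132.87 TPM and a difference of -1.03, and it lost its call when any of the 4 libraries was left out, at adjusted p of 0.0547 to 0.0805. SERPINE2, an inhibitor of such proteases, was called higher in RT112, at 41.74 and 44.53 TPM against 5.25 and 5.9 TPM. PLG, the plasminogen gene, and VTN, the gene of the matrix protein vitronectin, were listed at 0 in all 4 libraries. The counts that follow stand beside shares of 16.2% (RT112) and 15.9% (UM-UC-3) over all tested genes. Of 11 genes tested in this system, 2 were called higher in RT112 and 3 higher in UM-UC-3, and only PLAU was called higher in UM-UC-3 whichever library was left out.

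Of 31 redox and reductase genes, 15 were called higher in RT112 and 4 higher in UM-UC-3, with a median difference of 0.99, and 12 were not called. Among the reductases and dehydrogenases the counts were 11 and 1 of 15, and among the other redox genes 4 and 3 of 16. All tested genes gave shares of 16.2% and 15.9%. AKR1C1 and AKR1C2, which reduce steroids and aldehydes, had 415.01 and 424.33 TPM and 366.65 and 376.38 TPM in RT112, against 1.62 and 2.99 TPM and 0.54 and 0.93 TPM in UM-UC-3. They are near-identical, so the share of each is uncertain. ALDH1A3, which makes retinoic acid, had 1094.28 and 1111.03 TPM against 3.67 and 3.54 TPM, a difference of 8.22, while its relative ALDH1A1 had 0.02 and 0.19 TPM against 49.35 and 49.51 TPM. The redox genes lay on both sides. GPX2, a glutathione peroxidase, had 211.63 and 236.56 TPM in RT112 and 0.23 and 0.63 TPM in UM-UC-3, and GCLC, of glutathione synthesis, had 96.84 and 88.3 TPM against 37.07 and 38.3 TPM. NQO1 was not called, with 317.2 and 339.27 TPM in RT112 and 591.03 and 607.38 TPM in UM-UC-3, and TXNRD1 and HMOX1 were called higher in UM-UC-3, HMOX1 with 11.64 and 13.66 TPM against 148.13 and 139.37 TPM. With 1 library left out, 12, 11, 14 and 13 members were higher in RT112 and 4, 4, 2 and 3 higher in UM-UC-3, and ALDH1A1 and ME1 were lost without either UM-UC-3 library, at adjusted p of 0.0576 to 0.0802.

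Of 23 antigen presentation genes, 3 were called higher in RT112 and 7 higher in UM-UC-3, where the shares over all tested genes were 16.2% and 15.9%. HLA-B and HLA-C, class I heavy chains, were not called, with HLA-B at 103.21 and 113.02 TPM in RT112 and 63.31 and 58.44 TPM in UM-UC-3. HLA genes share sequence and vary between people, so reads can be lost or shifted among them. The immunoproteasome gene PSMB8 and the trimming peptidase ERAP2 were called higher in RT112, ERAP2 with 42.19 and 39.81 TPM against 10.46 and 11.19 TPM. Class II genes were low in both lines but held 4 of the 7 calls higher in UM-UC-3, and class I genes had 3 calls in each direction. With only genes averaging 1 TPM or more, 3 members were called higher in each line. The counts were 2, 1, 2 and 3 higher in RT112 and 5, 3, 5 and 6 higher in UM-UC-3 with 1 library left out, and PSMB8 lost its call without either RT112 library, at adjusted p of 0.0533 and 0.0563.

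Interferon-stimulated genes did not lean to one line, with 14 of 45 called higher in each and a median difference of 0.17. Among all tested genes 16.2% were called higher in RT112 and 15.9% higher in UM-UC-3. IFITM2 and IFITM3, which block virus entry, were called higher in UM-UC-3, IFITM2 with 0.1 and 0.45 TPM against 101.5 and 99.88 TPM and IFITM3 with 17.85 and 16 TPM against 258.32 and 272.47 TPM. IFI44 had 0.49 and 0.41 TPM against 57.31 and 53.05 TPM. On the other side BST2, which tethers budding virus, had 109.17 and 106.38 TPM in RT112 and 1.04 and 0.35 TPM in UM-UC-3, and OAS1 had 46.67 and 55.07 TPM against 8.41 and 9.3 TPM. The DNA sensor MB21D1 (cGAS) had 2.34 and 2.13 TPM against 20.62 and 19.48 TPM, and its partner TMEM173 (STING) had 10.97 and 10.52 TPM against 4.63 and 4.46 TPM, so the sensor and its partner were called in opposite directions. With 1 library left out 8, 9, 11 and 11 genes were higher in RT112 and 7, 8, 6 and 8 higher in UM-UC-3. BST2 lost its call without either RT112 library and IFITM2 without either UM-UC-3 library, at adjusted p of 0.0642 to 0.0657.

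Cytokines leaned to RT112 and chemokines to UM-UC-3. Of 17 cytokines, 8 were called higher in RT112 and 1 higher in UM-UC-3, and of 14 chemokines the counts were 3 and 6. Over all tested genes the shares were 16.2% and 15.9%. IL1A and IL1B, the alarm cytokines of epithelia, had 15.26 and 15.25 TPM and 29.11 and 30.15 TPM in RT112 and at most 0.09 TPM in UM-UC-3. Their receptor antagonist IL1RN had 50.42 and 51.09 TPM against 0 and 0.08 TPM. IL1A, IL1B and IL1RN lie in the same stretch of neighbouring genes called higher in RT112, at chr2:112773925-113209391. GDF15, a stress hormone, had 47.77 and 50.91 TPM against 0.09 and 0.11 TPM. CCL2, which draws monocytes, had 0 and 0.15 TPM in RT112 and 95.82 and 83.42 TPM in UM-UC-3, a difference of -9.14 (SE 0.50, adjusted p = 0.000747). CSF1, the macrophage growth factor, had 4.12 and 3.24 TPM against 23.34 and 22.11 TPM. CXCL1, CXCL2 and CXCL12 were listed at 0 in RT112 and at no more than 3.82 TPM in UM-UC-3. Over both kinds, 8, 8, 7 and 6 genes were higher in RT112 with 1 library left out, against 11, and CCL2 lost its call without either UM-UC-3 library and CXCL2 without either RT112 library, at adjusted p of 0.0516 to 0.0532.

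Metalloproteases and their inhibitors were evenly divided, with 9 of 27 called higher in each line, against 16.2% (RT112) and 15.9% (UM-UC-3) of all tested genes. The collagenase gene MMP1 and the membrane protease MMP14 were not called, MMP14 with 207.74 and 212.46 TPM in RT112 and 185.18 and 169.07 TPM in UM-UC-3. MMP2 had 65.59 and 65.67 TPM against 28.82 and 25.75 TPM and MMP28 had 44.05 and 49.09 TPM against 0.88 and 0.88 TPM, both called higher in RT112. MMP16 had 0.07 and 0.28 TPM against 31.62 and 28.49 TPM. The inhibitors differed by member: TIMP3, which stays bound to matrix, had 249.19 and 231.51 TPM in RT112 and 0.45 and 0.56 TPM in UM-UC-3, whereas TIMP2 had 32.39 and 33.65 TPM against 91.34 and 89.54 TPM. Left-out counts were 9, 9, 8 and 8 higher in RT112 and 6, 6, 4 and 3 higher in UM-UC-3, and MMP16 was lost without either UM-UC-3 library, at adjusted p of 0.0612 and 0.0624.

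Surface proteins that are targets of antibodies or of other drugs were mostly higher in RT112, with 21 of 34 called there, 4 in UM-UC-3 and a median difference of 1.51. PVRL4, which encodes nectin-4, had 17.74 and 22.47 TPM in RT112 and 0.06 and 0.06 TPM in UM-UC-3, a difference of 6.97. It is the target of an antibody-drug conjugate used in urothelial cancer. F3, the tissue factor gene, had 164.05 and 140.04 TPM against 4.72 and 2.12 TPM, and CD276 had 74.99 and 82.34 TPM against 37.71 and 35.49 TPM. CD70 was called higher in UM-UC-3, with 0.75 and 1.27 TPM against 24.17 and 18.4 TPM, as was L1CAM. CD274, which encodes PD-L1, was low and not called, with 2.51 and 5.02 TPM in RT112 and 3.45 and 3.24 TPM in UM-UC-3. Counts higher in RT112 with 1 library left out were 12, 12, 17 and 17 and those higher in UM-UC-3 were 3, 4, 1 and 2. F3 lost the call without either RT112 library and CD70 and L1CAM without either UM-UC-3 library, at adjusted p of 0.0569 to 0.107.

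HOX genes mark position along the body axis, and 11 of 36 were called higher in RT112 and 10 higher in UM-UC-3. The shares over all tested genes were 16.2% and 15.9%. HOXB2, HOXB4, HOXB8 and HOXB9 were called higher in UM-UC-3, HOXB2 with 0.35 and 0.45 TPM against 45.37 and 38.45 TPM. HOXB7, in the same cluster, was not called, at 54.78 and 52.21 TPM in RT112 and 49.62 and 48.43 TPM in UM-UC-3. HOXA3 was among those called higher in RT112. The calls rested on low levels in many members, and leaving out 1 library gave 10, 8, 3 and 3 higher in RT112 and 9, 10, 5 and 5 higher in UM-UC-3. HOXB8 lost its call without either UM-UC-3 library, at adjusted p of 0.0855 and 0.0884.

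Cancer-testis antigens are normally limited to the germline. Of 24 tested, 5 were called higher in RT112 and 7 higher in UM-UC-3, against 16.2% and 15.9% of all tested genes. A further 11 listed members were at 0 in all 4 libraries. The abundant ones were those of UM-UC-3. MAGEC2 had 0.4 and 0.13 TPM in RT112 and 56.23 and 56.8 TPM in UM-UC-3, MAGEA10 0.02 and 0 TPM against 13.04 and 14.8 TPM, and DDX43, an RNA helicase, 0.08 and 0.1 TPM against 41.26 and 41.64 TPM. MAGEA3 and MAGEA6 are near-identical and both were called higher in UM-UC-3. RT112 had CSAG1 at 8.36 and 6.29 TPM and MAGEA12 at 3.95 and 4.03 TPM, both listed at 0 in UM-UC-3. The counts were 6, 7, 3 and 3 higher in RT112 and 6, 6, 7 and 9 higher in UM-UC-3 with 1 library left out, and MAGEC2 was lost without either UM-UC-3 library, at adjusted p of 0.0552 and 0.0559.

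Imprinted genes are read from the copy of one parent. Among 13 genes read from the paternal copy, 7 were called higher in RT112 and 3 higher in UM-UC-3, against 16.2% and 15.9% of all tested genes. IGF2, a fetal growth factor, had 92.38 and 84.57 TPM in RT112 and 0.65 and 0.46 TPM in UM-UC-3, and MEST had 235.64 and 206.84 TPM against 0.16 and 0.62 TPM. SNRPN, which overlaps SNURF, had 48.37 and 50.45 TPM against 0.15 and 0.69 TPM. PLAGL1 ran the other way, at 0.06 and 0.37 TPM against 13.21 and 10.09 TPM. Of 5 genes read from the maternal copy, 3 were called higher in UM-UC-3, among them the growth inhibitor GRB10 with 0.83 and 1.56 TPM against 34.45 and 31.79 TPM. Over all 18 imprinted genes, 3, 3, 5 and 5 were higher in RT112 and 3, 3, 2 and 3 higher in UM-UC-3 with 1 library left out, against 7 and 6. MEST and SNRPN lost the call without either RT112 library and PLAGL1 and GRB10 without either UM-UC-3 library, at adjusted p of 0.0577 to 0.111.

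S100 proteins bind calcium, and 9 of 14 were called higher in RT112 and none in UM-UC-3. S100A2 had 1168.96 and 1112.62 TPM in RT112 and 12.05 and 14.63 TPM in UM-UC-3, and S100A6 had 1754.24 and 1888.31 TPM against 232.97 and 246.97 TPM. S100A14 had 627.67 and 619.64 TPM against 0 and 0.74 TPM. The metallothionein MT2A, which binds zinc and cadmium, was called higher in UM-UC-3, with 640.47 and 627.13 TPM against 1951.95 and 2016.86 TPM, although other metallothioneins share its sequence in part. Over both families, 7, 9, 9 and 9 members were higher in RT112 and 2, 2, 1 and 1 higher in UM-UC-3 with 1 library left out, and S100A14 and S100P were lost without either RT112 library, at adjusted p of 0.0985 to 0.124.

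The genes of growth and division differed little. Of 75 cytosolic ribosomal protein genes, 1 was called higher in RT112 and 2 higher in UM-UC-3, with a median difference of -0.18. RPL13 had 4051.36 and 4064.55 TPM in RT112 and 1877.52 and 1863.8 TPM in UM-UC-3, and RPL22 stood at the 2-fold limit. Of 36 genes of S phase and mitosis, 3 were called higher in RT112 and 2 higher in UM-UC-3. MKI67, the proliferation marker, had 94.41 and 96.65 TPM against 108.5 and 107.78 TPM, and TOP2A had 255.21 and 273.7 TPM against 278.31 and 268.99 TPM. The 3 genes higher in RT112 were the replication licensing genes CDC6 and CDT1 and the helicase subunit GINS2, the last with 95.67 and 98.79 TPM against 25.35 and 19.29 TPM, and all 3 lost the call without either RT112 library, at adjusted p of 0.0645 to 0.0823. UBE2C and CENPF, of mitosis, were called higher in UM-UC-3, UBE2C with 176.83 and 170.96 TPM against 461.44 and 423.44 TPM. Without 1 library the ribosomal count higher in UM-UC-3 was 3, 1, 5 and 1.

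Markers of other cell types mostly averaged under 1 TPM. Of 13 leukocyte, 8 endothelial and 10 fibroblast and smooth muscle markers, 1, 2 and 4 averaged 1 TPM or more over the 4 control libraries. PTPRC, CD3D, MS4A1 and HBB, which mark leukocytes, lymphocytes and red cells, were listed at 0 in all 4 libraries, and 1 of 8 tested leukocyte markers was called higher in RT112 and 2 higher in UM-UC-3. CD68, a lysosomal protein also made outside macrophages, had 16.43 and 19.5 TPM in RT112 and 278.72 and 274.65 TPM in UM-UC-3. Of 7 endothelial markers 2 were called higher in RT112 and 1 in UM-UC-3, and of 10 markers of fibroblasts and smooth muscle 2 and 3. These marker counts stand beside shares of 16.2% and 15.9% over all tested genes. Differences among the fibroblast and smooth muscle markers ran from -8.94 to 4.59. The markers of bladder epithelium named for the label check held in RT112, except UPK3A at 0. In UM-UC-3 KRT8 and KRT18 were present, KRT7 had 7.99 and 10.45 TPM and KRT19 had 0.52 and 2.78 TPM. GATA3, EPCAM, CDH1 and UPK1B had at most 1.38 TPM, so UM-UC-3 held few of the markers of the tissue in its label.

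By chromosome, the calls were uneven. Over 12329 genes averaging 1 TPM or more on chromosomes 1 to 22 and X, 18% were called higher in RT112 and 17.4% higher in UM-UC-3, with a median difference of -0.04. Chromosome 19 stood out after the values were seen, with 918 genes of which 13.2% were called higher in RT112 and 33.7% higher in UM-UC-3. Its median difference was -0.67, was -0.63 after rescaling by the median ratio, and lay between -0.53 and -0.81 in each of the 6 stretches of 10 Mb. Zinc finger genes (symbols in ZNF or ZFP), which are clustered on this chromosome, had a median of -0.77 over 190 genes, and the other 728 genes there had -0.64. Zinc finger genes on other chromosomes had a median of -0.12 over 229 genes. In the other direction, chromosome 16 had 25.4% called higher in RT112 and 7.61% higher in UM-UC-3, and chromosome 21 had 30.8% and 11.5%. The knockdown libraries gave chromosome 19 a median of -0.64.

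**Figure D4:**
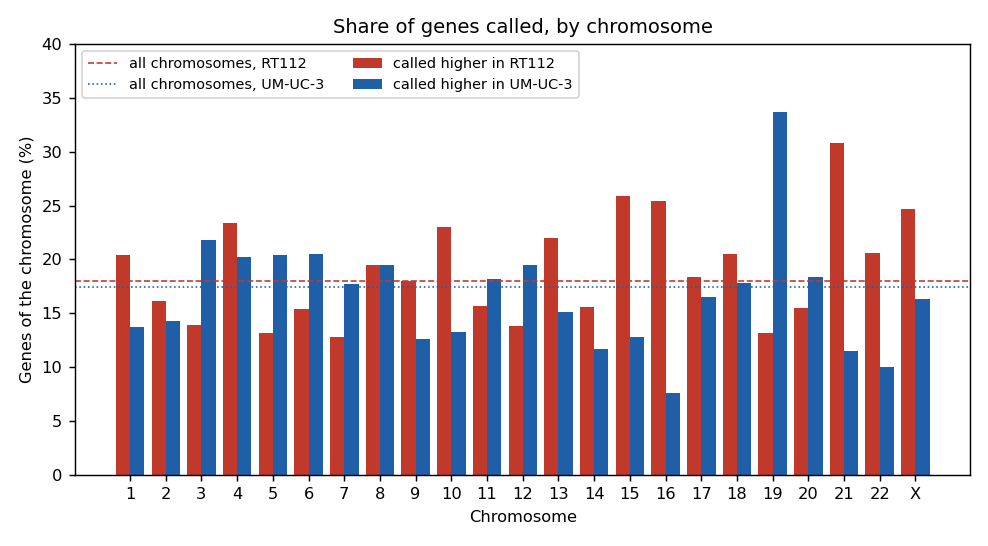
Share of genes called higher in RT112 and higher in UM-UC-3 on each chromosome, in percent of the genes that averaged 1 TPM or more. Chromosome 19 has the largest share called higher in UM-UC-3, 33.7%, and chromosome 21 the largest share called higher in RT112, 30.8%.

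The same comparison was made in the 4 knockdown libraries, which are separate libraries of the same lines. There 3292 of 19359 tested genes were called higher in RT112, or 17%, and 3010 higher in UM-UC-3, or 15.5%, which is 32.6% in either direction. Of the 3108 genes called higher in RT112 in the control libraries, 3097 were tested there, 3065 had the same direction and 2656 were called the same way, which is 85.5% of the control calls and 80.7% of the knockdown calls. Of the 3054 called higher in UM-UC-3, 2983 had the same direction and 2441 were called, which is 79.9% and 81.1%. The number called in the opposite direction was 1 and 3.

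Calls in the lists were also counted there. The regulators had 20 higher in RT112 and none higher in UM-UC-3, the keratins 20 and none, the junction genes 32 and 3, and the splicing and trafficking genes 20 and 2. The mesenchymal genes had 14 higher in RT112 and 36 higher in UM-UC-3. Antigen presentation genes, with 3 higher in RT112 and 7 higher in UM-UC-3 in the controls, had 5 and 5, plasminogen system genes went from 2 and 3 to 2 and 5, and surface drug targets from 21 and 4 to 17 and 3. CDH1 differed by 8.56 (adjusted p = 0.000221) and ZEB1 by -7.16 (adjusted p = 0.000286). VIM differed by -8.69 and FGFR3 by 6.88. CDH2, which leaned to RT112 in the control libraries, differed by -0.10 (adjusted p = 0.867) in the knockdown libraries and was not called in either.

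**Figure D5:**
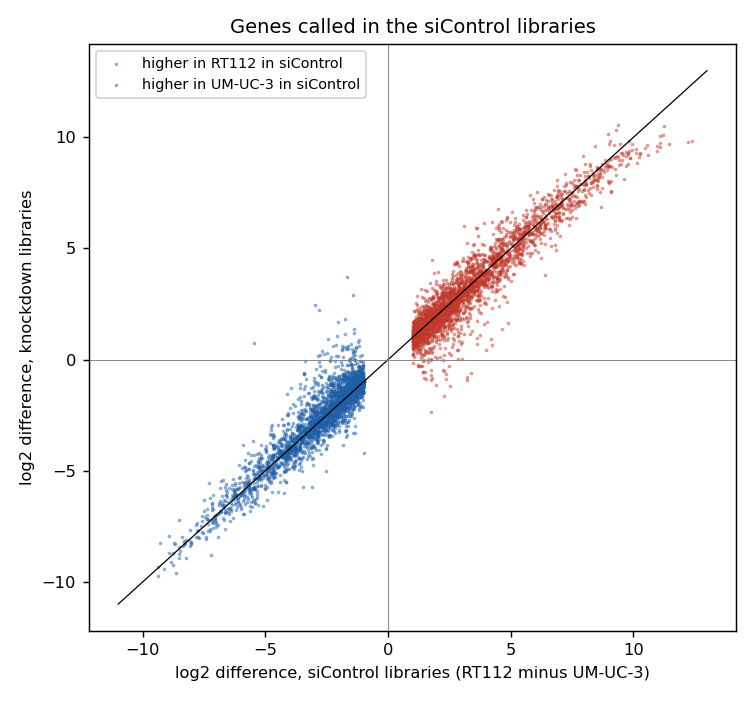
Difference between the lines (RT112 minus UM-UC-3, log2(TPM + 0.1) scale) in the control libraries (x axis) and in the knockdown libraries (y axis). Each point is a gene called in the control libraries and tested in both, and genes not called in the controls are not drawn. The points broadly follow the diagonal, but the 10 genes named for the largest difference toward RT112 lie below it, such as KRT13 (12.37 and 9.85). Of 3108 genes called higher in RT112 in the controls, 2656 were called the same way in the knockdown libraries. Of 3054 called higher in UM-UC-3, 2441 were.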

How the data were processed

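RNA was isolated 72 h after transfection, and stranded mRNA libraries were sequenced as single reads of 75 bases. The authors deposited TPM per gene, which are values scaled for gene length and to a fixed sum of 1000000 per library, and FPKM per gene of the same libraries. The submitters' processing notes name GRCh38, STAR 2.5.0 and RSEM 1.2.25. Read counts were not used here, so depth was estimated from the steps of low FPKM values, a figure that a multiple of that depth would also give. Precision at low levels is limited by that depth and by values deposited with 2 decimals.

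From the table of 27567 entries, 92 spike-in entries (0 in all libraries) were left out, and genes above 0 TPM in at least 1 of the 4 control libraries were kept. log2(TPM + 0.1) was fitted with limma 3.58.1 in R 4.3.3 (eBayes with trend, two-sided, Benjamini-Hochberg adjustment over all genes tested). The script was tested on simulated data. A gene was called at an adjusted p under 0.05 and at least 2-fold. The same fit was made in the knockdown libraries. Values were handled with Python 3.11.15, numpy 2.4.6 and pandas 2.3.3.

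Genes were named by level (the 5 highest of each line outside the mitochondrial genome), by difference (the 10 largest in each direction among called genes with at least 10 TPM in the higher line), or as members of 29 lists, mainly called members with the highest levels and members whose role is described. Genes of the Y chromosome, XIST and clone names were not named, and the target of the knockdown and some list members are not reported here. The members and the lists were chosen with earlier results of these data known. Coordinates and promoters are RefSeq GRCh38.p14, to which 21958 genes matched by symbol and 5517 did not. Symbols are those of the table. Alternatives were 2 other pseudocounts, FPKM, rescaling by the median ratio, other filters, a fit over all 8 libraries, the replicate number as a block, eBayes without trend, and each library left out in turn.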

Additional observations from a re-analysis of the deposited data

How the results depend on the processing

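Under 9 settings over the full set of control libraries, the count of genes called higher in RT112 ran from 2362 (pseudocount of 1 TPM) to 3233 (rescaling by the median ratio) and that of genes called higher in UM-UC-3 from 2191 (pseudocount of 1 TPM) to 3129 (1 fit over all 8 libraries). With 1 library left out, the counts ran from 2149 to 2331 and from 1996 to 2277, and in the knockdown libraries from 1987 to 2581 and from 1957 to 2178; these fits have 3 samples, and the lone library is assumed to vary like the other line. The count in UM-UC-3 moved by over 1.5 times without RT112 control replicate 2 (1996), and in the knockdown comparison the same happened when either UM-UC-3 library was omitted (1987 and 2016 higher in RT112) and, for genes higher in UM-UC-3, when its first was omitted (1957). Among single genes, CDH2 changed sign between the control (0.96) and the knockdown libraries (-0.10), and the cause was not tested. With all genes of the table tested and no filter, KRT13 and LY6D had adjusted p of 0.0708 and 0.0558. PLAUR (-0.99) and RPL22 (-0.96) fell under 2-fold after rescaling, EGFR with FPKM (0.98) and HOXA3 with a pseudocount of 1 TPM (0.99), while QKI (-1.01) passed 2-fold with FPKM.

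The replicate numbers do not pair the samples by the labels, and the replicate differences of the 2 lines correlated at -0.005 in the control and -0.038 in the knockdown libraries, over 12769 genes. With the replicate number as a block, 2946 genes were called higher in RT112 and 2896 higher in UM-UC-3, and 3126 and 2867 in the knockdown libraries.

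With 2 libraries per line, levels under about 1 TPM rest on few reads, and calls for genes at 0 in one line depend on the pseudocount for their size. Line, medium and any difference in handling cannot be told apart, and no copy number, DNA sequence or protein was measured.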

Other observations

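Some of the genes called at least 4-fold different lay beside each other. A run was taken as 5 or more neighbouring protein-coding genes, among those averaging 1 TPM or more in either line, that were all called in one direction at 4-fold or more; this definition was chosen after the values were seen, and no test was made of it. There were 12 runs higher in RT112, which held 74 of the 1441 genes called there at 4-fold or more, and 3 runs higher in UM-UC-3, which held 17 of 1205. The longest was a keratin cluster at chr12:52168996-52952906, with 10 genes. The next, with 9, was at chr1:152786257-153545806 and held genes of the cornified envelope that hardens the surface of layered epithelia. There IVL, which encodes involucrin, had 242.62 and 238.11 TPM in RT112 and 0.14 and 0.21 TPM in UM-UC-3, and SPRR3 had 41.27 and 43.47 TPM against 0 and 0.11 TPM. A run of 6 at chr21:42199689-42775509 held TFF1, a secreted trefoil peptide of mucosal surfaces, with 82.19 and 127.94 TPM against 0 and 0.09 TPM. The guanylate-binding genes GBP1, GBP2, GBP3, GBP4 and GBP6 formed a run of 5 at chr1:89006680-89388160, with GBP2 at 25.2 and 25.98 TPM against 0.6 and 0.31 TPM. GBP2 lost its call without either RT112 library, at adjusted p of 0.0506 and 0.0512.

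In UM-UC-3 a run of 6 protocadherin genes lay at chr5:141100473-141191541, where PCDHB5, a cell surface protein best known from neurons, had 0.77 and 0.21 TPM in RT112 and 15.51 and 13.21 TPM in UM-UC-3. Another run of 6 at chr18:5392386-8406856 included EPB41L3, which links membrane proteins to the cytoskeleton, with 6.05 and 4.45 TPM against 90.76 and 84.14 TPM. A run of 5 at chr4:112705622-117085576 included ANK2, which anchors ion channels, with 0.09 and 0.03 TPM against 21.04 and 22.45 TPM. On chromosome X, a run of 6 at chrX:108155614-110440233 was higher in RT112, and ACSL4, which activates polyunsaturated fatty acids, had 19.32 and 19.01 TPM there against 0.2 and 0.01 TPM. PCDHB5 lost its call without either UM-UC-3 library and ACSL4 without either RT112 library, at adjusted p of 0.0764 to 0.12. In the knockdown libraries all 10 keratin genes, all 6 protocadherin genes and all 6 genes of the run with ACSL4 were called the same way.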
